A study of Mus musculus with 60 samples.

Results

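The 6 Distal-less homeobox (Dlx) genes of the mouse, Dlx1 to Dlx6, were followed through a CUT&RUN time course of the Polycomb mark H3K27me3. They were chosen by name from 21866 protein-coding genes whose promoters could be read against the peak files. The rule uses no measured value, but it was set with earlier results of these data known. Embryonic stem cells (ESCs) went through a protocol in serum-free N2B27 medium that turns wild-type cells into anterior neural progenitor cells. Harvests were on day 0, on day 2, on day 3 and on day 5. A further day 5 harvest had received 5 µM XAV939, an inhibitor of Wnt signalling, from day 2 onwards (day 5 XAV). Tet1 KO cells (lines KO15 throughout, KO25 at day 0 and day 2, KO1 from day 3) lack the DNA dioxygenase TET1. The sample descriptions of KO25 name files of WT70, against their titles, and the titles were followed here, so the identity of these 2 libraries is less certain. MUT cells (CM59 throughout, CM40 at day 0 and day 2, CM69 from day 3) carry a catalytically dead Tet1 made by CRISPR editing, and each is 1 clone. WT cells were the lines WT70 and WT72. All lines share the B6129S6F1 background of the Tet1tm1Koh mice. There were 2 lines of each genotype at each time point, which gave 30 H3K27me3 libraries, and 30 IgG samples served as controls for peak calling. Because the second KO and MUT lines were exchanged between day 2 and day 3, the line and the time cannot be told apart for them. The paper reports that KO cells end the protocol without XAV mainly as mesoderm and endoderm. It describes MUT cultures there as mostly ectoderm with some mesoderm and endoderm. With XAV, the paper reports a forebrain identity for the cells of all genotypes. Late comparisons of genotypes, and of XAV within KO or MUT, therefore also compare different cell types.

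Dlx proteins are transcription factors that bind DNA through a homeodomain. The genes lie in convergently transcribed pairs (Dlx1-Dlx2, Dlx3-Dlx4, Dlx5-Dlx6), and the members of a pair share enhancers and are often expressed together. Dlx1, Dlx2, Dlx5 and Dlx6 drive the differentiation of GABAergic interneurons in the ventral forebrain, and Dlx genes pattern the jaw and the limb. Polycomb repressive complex 2 places H3K27me3 over such developmental genes while they are silent, often in domains many kilobases wide over CpG islands. The mark was measured here in bulk cultures, where fewer cells with the mark and less of it per cell cannot be told apart, and the expression of the genes was not measured by these libraries.

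On the GRCm38 (mm10) genome, Dlx1 (ENSMUSG00000041911.3) lay at chr2:71528113-71533981 on the plus strand and Dlx2 (ENSMUSG00000023391.8) at chr2:71543408-71546754 on the minus strand. Dlx3 (ENSMUSG00000001510.8) lay at chr11:95120119-95125296 on the plus strand and Dlx4 (ENSMUSG00000020871.8) at chr11:95140447-95146263 on the minus strand. Dlx6 (ENSMUSG00000029754.13) lay at chr6:6863334-6868568 on the plus strand and Dlx5 (ENSMUSG00000029755.10) at chr6:6877805-6882085 on the minus strand. In every pair the 3′ ends faced each other, across 9.43 kb for Dlx1-Dlx2, 15.2 kb for Dlx3-Dlx4 and 9.24 kb for Dlx5-Dlx6. Antisense transcripts overlapped each pair, namely Dlx1as on chromosome 2, Dlx4os on chromosome 11 and Dlx6os1 on chromosome 6.

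The marked regions were rich in CpG, the dinucleotide that CpG islands concentrate. Within 1.5 kb of the start sites, the members held between 114 CpGs (Dlx5) and 153 CpGs (Dlx2). The median was 115 CpGs over the 3179 promoters called in at least 2 libraries and 66 over the promoters called in fewer. The 250 bases upstream of Dlx2 are shown because this was the promoter that 1 library left without a peak. They are written 5′ to 3′ on the minus strand from RefSeq on GRCm38.p6, at chr2:71546755-71547004, with each CpG in capitals.
Dlx2 upstream: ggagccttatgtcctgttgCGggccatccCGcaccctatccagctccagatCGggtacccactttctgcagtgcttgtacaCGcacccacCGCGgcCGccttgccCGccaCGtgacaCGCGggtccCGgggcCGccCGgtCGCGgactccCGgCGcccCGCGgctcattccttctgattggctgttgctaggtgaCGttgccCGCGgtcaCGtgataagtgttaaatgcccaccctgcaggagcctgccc
These bases hold 24 CpGs at 66.4% GC. The median over 32851 RefSeq promoter sequences is 6 CpGs in the same window, and 88.0% of them hold fewer than Dlx2. The whole stretch was inside a peak in 29 libraries and outside every peak in 1 library. RefSeq promoter sequences were matched for 2 of the 6 members.

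The libraries differed in how much of the genome they called. Between 704 peaks (CM59 day 5 XAV) and 3466 peaks (CM40 day 0) were called, with a median of 1789. The median covered length was 12.9 Mb at day 0, 18.4 Mb at day 2, 8.78 Mb at day 3, 11.7 Mb at day 5 and 10.8 Mb at day 5 XAV. The median peak width was 4.89 kb, 7.45 kb, 4.97 kb, 5.00 kb and 5.37 kb at the same time points. Day 2 therefore had the highest medians of both, although single libraries overlapped: CM40 day 0 covered 20.8 Mb, more than any day 2 library, and CM59 day 2 covered 11.7 Mb, the least of that day. The part of this in the Dlx values was not tested. Read counts per library were not used here, so the depth behind each peak is unknown. As a check of the cells, promoters of 8 housekeeping genes carried no peak in any library, and those of 8 neural progenitor genes carried one in 83.3% ± 6.45 of cases at day 0, in 75% ± 15.8 by day 5 and in 58.3% ± 6.45 under XAV (SD over 6 libraries). At day 5 that list differed with genotype, at 87.5% to 100% in the 2 KO libraries, 62.5% to 75% in the 2 MUT libraries and 62.5% in both WT libraries, while 10 mesoderm and endoderm genes were called in 70% to 80% of cases in KO and in MUT and in 80% in WT.

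All 6 Dlx promoters were almost always under H3K27me3. A promoter, here the window of 1.5 kb on either side of a start site, carried a peak in 179 of 180 cases. Dlx1, Dlx3, Dlx4, Dlx5 and Dlx6 were called in 30 of 30 libraries and Dlx2 in 29. The exception was WT70 day 5 XAV, in which the mark ended 15.3 kb downstream of the Dlx1 start and resumed at 20.9 kb, leaving out the Dlx2 start at 18.6 kb. Of the 3179 promoters called in at least 2 libraries, 439 (13.8%) were called in all 30. With 1 call missing among 180, calls could not separate the genotypes, and the exact stratified test was bound to give a p of 1 for every member.

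Ranked within each library by total signal, most Dlx peaks lay near the top. The percentile of a promoter is the share of the library's peaks at or below its strongest peak, so that 100 is the strongest peak and 0 is no peak. Over 30 libraries it averaged 93.3 ± 4.92 for Dlx1, 90.2 ± 9.20 for Dlx5, 87.9 ± 6.57 for Dlx4, 87.2 ± 16.7 for Dlx6, 79.6 ± 26.6 for Dlx2 and 75.02 ± 8.62 for Dlx3 (SD). No neighbours in this order were farther apart than their own spread. The median of all promoters at a peak was 55.1. Dlx1 had the 90th highest mean among the 3179 promoters and Dlx3 the 318th. Among them Dlx6 had the 71st widest mean peak, Dlx5 the 72nd and Dlx3 the 708th. The plot of percentiles shows that Dlx1 varied least of the 6 members and that Dlx2 and Dlx6 lay far below their own means in single libraries.

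**Figure D1:**
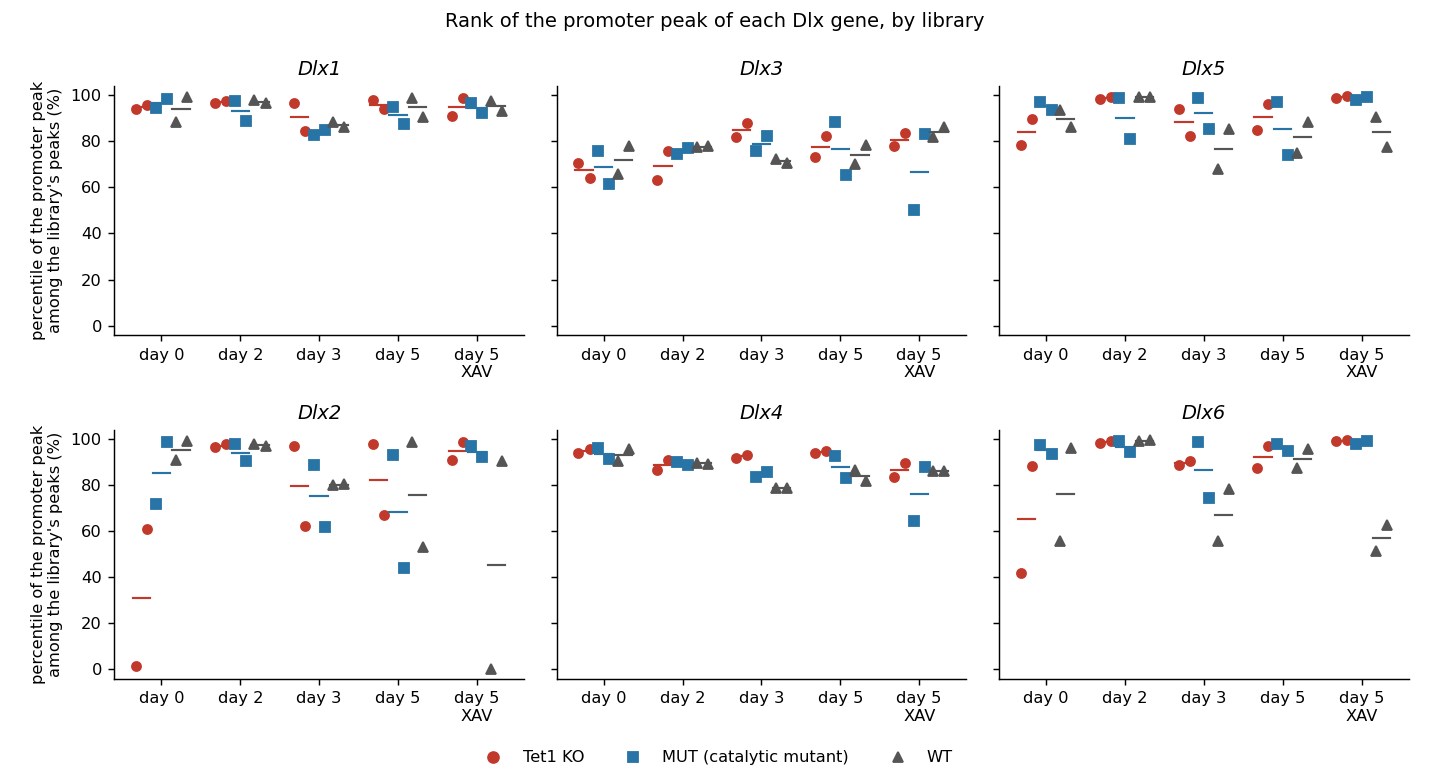
Percentile of the strongest promoter peak within each library (y axis, 0 for no peak) for Dlx1 to Dlx6, by time point and genotype, with 1 point for each of the 30 libraries and a dash at the mean of each genotype. Dlx1 stays between 82.7 and 99.0, while Dlx2 reaches 0 in WT70 day 5 XAV and 1.57 in KO15 day 0.

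Both low Dlx2 values came where the domain broke near its start site. In KO15 day 0 the peak over the Dlx2 promoter was 2.02 kb wide and stood at the 1.57th percentile, against 60.8 in KO25, 71.6 and 98.4 in CM40 and CM59, and 90.8 and 99.0 in WT70 and WT72 of the same day. KO25 and CM40 of that day also had 4 peaks over the pair, as KO15 did, and what set the lower value of KO15 was not tested. The rank and the width of a promoter are those of the peak over it. They therefore differ between a domain called as 1 peak and the same domain called as several, and both members of a pair took the same values where 1 peak covered both.

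The pairs differed in how the mark was laid out. A single peak ran over both promoters of Dlx1-Dlx2 in 12 of 30 libraries and over both of Dlx5-Dlx6 in 10 of 30, and in 7 libraries both pairs were joined. Dlx3-Dlx4 was joined in 0 of 30. The region between the genes was covered over 85.9% of its length on average at Dlx1-Dlx2 and 77.9% at Dlx5-Dlx6, but over 13.7% at Dlx3-Dlx4, where chr11:95124931-95137891 was covered in no more than 15 libraries at any base. At Dlx5-Dlx6 the corresponding weak stretch was chr6:6867609-6868944, at the 3′ end of Dlx6, which 10 to 15 libraries covered. Each pair nevertheless had a constant core: 9.55 kb of the Dlx1-Dlx2 window, 9.72 kb of the Dlx3-Dlx4 window and 10.1 kb of the Dlx5-Dlx6 window lay in a peak in all 30 libraries.

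**Figure D2:**
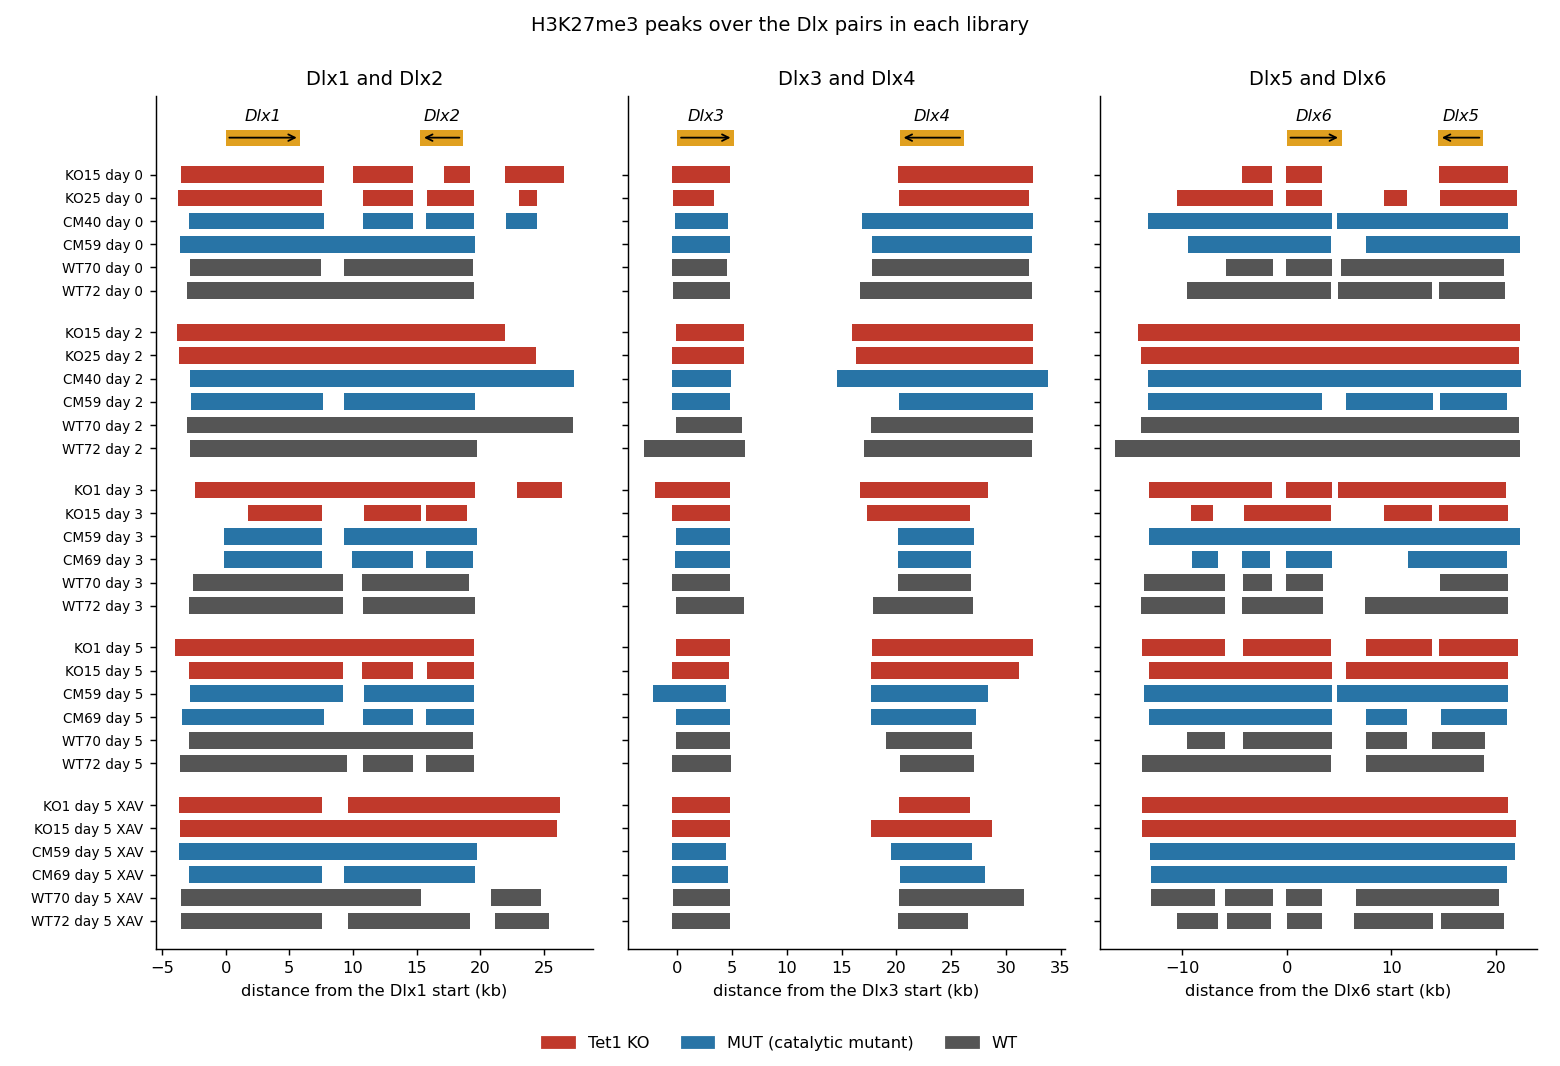
H3K27me3 peaks around each Dlx pair (x axis, distance in kb from the start of Dlx1, Dlx3 or Dlx6), with 1 row for each of the 30 libraries grouped by time point and, within it, KO, MUT and WT from the top. Dlx3-Dlx4 stays in separate peaks in all 30 libraries, and Dlx1-Dlx2 and Dlx5-Dlx6 are each joined in 5 of 6 libraries at day 2.

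The promoters around the pairs were rarely marked. The nearest protein-coding promoters were those of Metap1d (74.8 kb away) and Itga6 (240.2 kb) around Dlx1-Dlx2, Itga3 (43.3 kb) and Tac4 (115.3 kb) around Dlx3-Dlx4, and Sem1 (284.7 kb) and Sdhaf3 (73.9 kb) around Dlx5-Dlx6. Itga3, an integrin subunit gene, was called in 2 libraries and the other 5 in none.

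The first comparison asked whether loss of TET1, or of its catalytic activity alone, changed the mark at these genes on average over the time points. No member changed past the threshold in rank or in width in KO against WT, MUT against WT or KO against MUT, by an exact permutation test within time points with Benjamini-Hochberg adjustment over all promoters tested. The same test called 0% of all promoters in each of these comparisons. It averages the differences of the 5 time points, so shifts in opposite directions at different time points cancel and cannot be seen by it. Late in the time course the genotypes also differ in cell type, and the part of this in the Dlx values was not tested. At an unadjusted p under 0.05, the rank test picked 1 of 6 members in each comparison, where it picked 16.8% of promoters in KO against WT, 3.21% in MUT against WT and 6.74% in KO against MUT. The width test picked 0 of 6, beside 13.7%, 3.97% and 6.98% of promoters in the same comparisons.

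Dlx4, which is expressed in the branchial arches, was the member picked in KO against WT. Its percentile ran from 83.5 to 95.8 with a median of 92.4 in 10 KO libraries, and from 78.6 to 95.6 with a median of 86.2 in 10 WT libraries. The groups overlapped. The mean difference was +5.18 (p = 0.0185 unadjusted, adjusted p = 0.209, exact permutation test), and the median difference over all promoters was +4.74, so that Dlx4 lay above 52.0% of promoters. In KO against MUT the difference for Dlx4 was +5.11 (p = 0.0386 unadjusted, adjusted p = 0.690, exact permutation test). Without KO25 it was +4.57 in KO against WT (adjusted p = 0.471) and +4.49 in KO against MUT (adjusted p of 1, both exact permutation tests), and still no member passed in either comparison.

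Dlx6, which acts with Dlx5 in the lower jaw, the limb and the interneurons, was the member picked in MUT against WT. Its percentile ran from 74.5 to 99.2 with a median of 97.3 in 10 MUT libraries, and from 51.3 to 99.3 with a median of 82.7 in 10 WT libraries. The groups overlapped here as well, and the low WT values were WT70 at day 0, day 3 and day 5 XAV (55.9, 55.7 and 51.3) and WT72 at day 5 XAV (62.6). The mean difference was +16.5 (p = 0.0296 unadjusted, adjusted p of 1, exact permutation test), beside +1.92 for the median promoter. The other members had differences between -6.46 (Dlx2, KO against MUT) and +10.8 (Dlx6, KO against WT) in rank, none with an unadjusted p under 0.05.

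The length covered by peaks over a pair, from which a split removes only the uncovered bases between peaks, was compared over the span of both genes with 10 kb on either side. KO libraries had 0.889 kb more than WT libraries at Dlx1-Dlx2, 1.25 kb more at Dlx3-Dlx4 and 1.21 kb more at Dlx5-Dlx6, and as a percentage of each library's covered bases the same differences were -0.0506, -0.0221 and -0.0472 percentage points. The scale thus set the sign. Without KO25 the differences in length were +0.897 kb, +1.44 kb and +0.325 kb. The lowest adjusted p of the 3 was 0.131 on the second scale (Dlx5-Dlx6, exact permutation test, adjusted over 21 tests). MUT libraries differed from WT libraries by -1.44 kb, -0.314 kb and +3.23 kb at the 3 pairs, with unadjusted p between 0.0864 and 0.764. KO libraries differed from MUT libraries by +2.33 kb, +1.56 kb and -2.02 kb, and the sign turned at Dlx1-Dlx2 and Dlx3-Dlx4 on the percentage scale. All these differences are averages over the 5 time points, and single time points could go opposite ways. At Dlx5-Dlx6 the KO libraries averaged 17.2 kb and the WT libraries 26.8 kb at day 0, but 28.1 kb and 23.4 kb at day 5. No comparison of covered length between genotypes passed the threshold, and 2 lines against 2 at a single time point cannot give a p under 0.333.

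At single time points, chosen here after the values were seen, KO libraries at day 0 had the shortest coverage at Dlx5-Dlx6. How many other regions showed this order at day 0 was not counted, so it cannot be called particular to this pair. The window was covered over 12.8 kb in KO15 and 21.7 kb in KO25, against 30.6 kb in CM40, 28.5 kb in CM59, 24.5 kb in WT70 and 29.04 kb in WT72. As a percentage of each library's covered bases the genotypes overlapped, with 0.113 in KO15 and 0.152 in KO25, against 0.147 in CM40, 0.247 in CM59, 0.2198 in WT70 and 0.149 in WT72. At day 5 the KO lines were not the lowest, with 26.4 kb in KO1 and 29.8 kb in KO15, against 24.7 kb and 30.6 kb in the MUT lines CM69 and CM59, and 21.2 kb and 25.6 kb in WT70 and WT72.

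The second comparison followed the domains through differentiation. Mean peak widths were larger at day 2 than at day 0 for all 6 members, with none past the threshold, and 4 of 6 members then had narrower peaks at day 3. A single peak covered Dlx1-Dlx2 in 2 of 6 libraries at day 0, in 5 at day 2, in 1 at day 3, in 2 at day 5 and in 2 at day 5 XAV. For Dlx5-Dlx6 the counts in the same order were 0, 5, 1, 0 and 4 of 6. CM59 was the line without a joined domain at day 2 at both pairs.

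At day 3 against day 2, the peaks over Dlx1, Dlx2, Dlx4 and Dlx6 became narrower past the threshold (4 of 6 members, exact permutation test within genotypes, adjusted over all promoters). The same test called 37.4% of all promoters, 752 narrower and 1 wider, and 95.6% of promoters had a smaller mean width. A promoter without a peak entered with a width of 0 kb, so lost calls also count as narrower in these shares and in the median promoter. The Dlx promoters had a peak in every library of both days. The smallest p that the design allows is 0.00926, and adjusted values under 0.05 were possible because so many promoters reached it. At an unadjusted p under 0.05 the width test picked the same 4 members and 52.7% of promoters.

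The Dlx1 peak was 5.77 to 22.0 kb wide in 6 libraries at day 3, and 10.4 to 30.3 kb at day 2. It was narrower at day 3 by 13.4 kb on average (11.2 ± 5.84 kb against 24.5 ± 7.53 kb, SD, adjusted p = 0.0360, exact permutation test), and the 2 days overlapped through KO1 day 3 and CM59 day 2. The Dlx2 peak averaged 9.41 ± 6.81 kb at day 3 and 24.5 ± 7.55 kb at day 2 (adjusted p = 0.0496, exact permutation test). Dlx1 and Dlx2, which act together in the forebrain, shared 1 peak in 1 library at day 3 and in 5 libraries at day 2, so these are not independent measurements.

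The Dlx6 peak averaged 11.9 ± 11.9 kb at day 3 and 33.3 ± 8.23 kb at day 2 (adjusted p = 0.0496, exact permutation test). At day 3 it was 11.7 kb in KO1, 8.36 kb in KO15, 35.4 kb in CM59, 4.34 kb in CM69, 3.56 kb in WT70 and 7.75 kb in WT72. At day 2 it was 36.5 kb in KO15, 36.2 kb in KO25, 35.7 kb in CM40, 16.6 kb in CM59, 36.2 kb in WT70 and 38.6 kb in WT72. CM59 ran opposite to the other lines, with its wide peak at day 3. Dlx5, which guides jaw and bone formation, averaged 14.6 ± 10.9 kb at day 3 and 31.6 ± 12.4 kb at day 2, and this difference did not pass (adjusted p = 0.128, exact permutation test).

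Dlx3 and Dlx4 differed in how they moved. The Dlx4 peak was 6.62, 6.68, 6.88, 9.10, 9.46 and 11.7 kb wide in the 6 libraries of day 3. It was 12.2, 14.8, 15.4, 16.2, 16.5 and 19.3 kb wide in those of day 2, so that the days did not overlap (difference -7.32 kb, adjusted p = 0.0360, exact permutation test). How many other promoters had widths without overlap between these days was not counted, and 37.4% of all promoters passed the same width test. Dlx3, a gene of placenta, skin and tooth, kept a compact peak of 5.62 ± 0.757 kb at day 3 and 6.46 ± 1.42 kb at day 2 (difference -0.84 kb, adjusted p = 0.232, exact permutation test). The median promoter was narrower by 3.43 kb, which lay between these members.

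The edge of the Dlx4 peak upstream of its start site, inside Dlx4os, lay farther out at day 2 than at day 3. This reach was examined after its values had been seen and is given as a description. The Dlx4 peak extended 5.96 to 6.33 kb upstream in the 6 libraries of day 0, 6.26 to 7.74 kb at day 2 and 0.617 to 2.25 kb at day 3. A reach that was shorter in every day 3 library than in every day 2 library was seen at 17.8% of the promoters with a peak in all of them. At day 5 the reach was 6.29 kb in KO1 and 5.07 kb in KO15, against 2.22 kb in CM59, 1.17 kb in CM69, 0.797 kb in WT70 and 0.929 kb in WT72. Both KO libraries were thus longer than the other 4, which held for 20.7% of promoters measured the same way. The same 2 KO libraries also had the most neural progenitor promoters under the mark (87.5% and 100%, against 62.5% to 75% in the other 4), and the part of this in the Dlx4 reach was not tested. At day 5 XAV the long reach was in WT70 (5.49 kb), with 0.605 kb in KO1, 2.63 kb in KO15, 0.797 kb in CM59, 2.00 kb in CM69 and 0.398 kb in WT72.

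**Figure D3:**
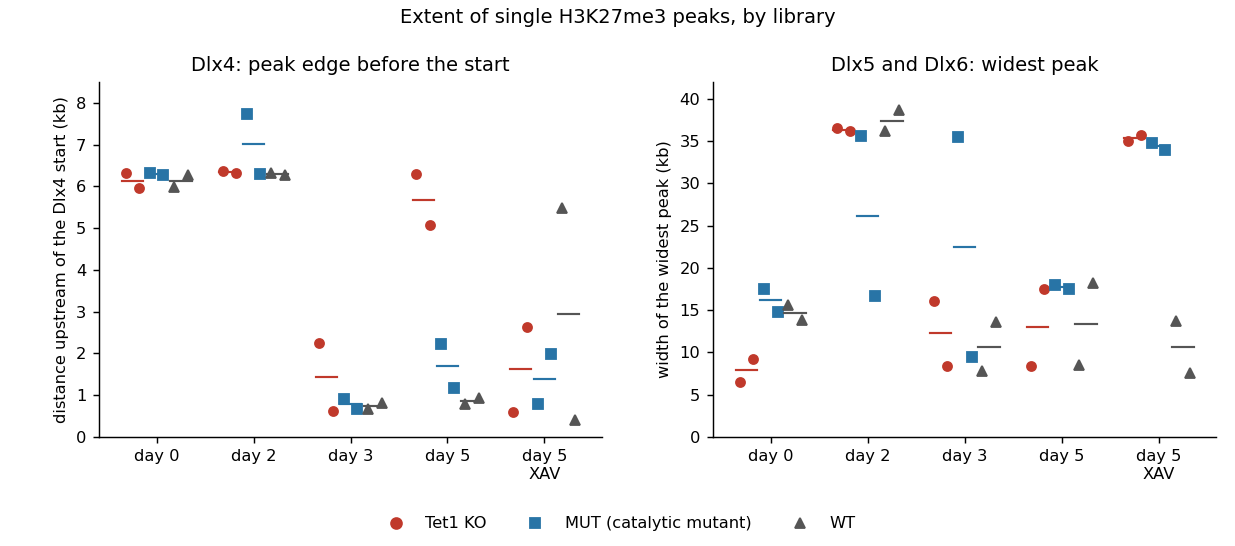
How far the Dlx4 promoter peak reached upstream of the start site, and the width of the widest peak at Dlx5-Dlx6, both in kb (y axes), by time point and genotype with 1 point per library and a dash at the mean of each genotype. All day 0 and day 2 libraries reach at least 5.96 kb upstream of Dlx4 and all day 3 libraries at most 2.25 kb, and the KO and MUT libraries of day 5 XAV have Dlx5-Dlx6 peaks of 34.0 to 35.8 kb.

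Fewer of the 4 members with narrower peaks passed once libraries were left out. Without 1 line at a time the count was between 0 and 2 members: 2 without KO1, 1 without KO25 and 0 without KO15, CM40, CM59, CM69, WT70 or WT72, while each of the 4 members kept its direction. KO15, CM59, WT70 and WT72 were sampled on both days, so leaving out any of them leaves 1 library against 1 in its genotype. This raises the smallest p that the test can give, and a count of 0 there cannot tell lost power from a lost difference. With the line as a replicate block, which leaves the 4 lines sampled on both days and cannot reach the threshold, 0 of 6 passed.

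In covered length, all 3 pairs were shorter at day 3 than at day 2, and none passed after adjustment over 21 tests. Dlx1-Dlx2 averaged 19.0 ± 4.16 kb at day 3 and 26.3 ± 4.00 kb at day 2 (difference -7.22 kb, adjusted p = 0.0648, exact permutation test). Dlx3-Dlx4 averaged 14.0 ± 2.73 kb at day 3 and 22.2 ± 2.68 kb at day 2 (difference -8.16 kb, adjusted p = 0.0648, exact permutation test). Dlx5-Dlx6 averaged 24.0 ± 5.94 kb at day 3 and 31.6 ± 1.67 kb at day 2 (difference -7.56 kb, adjusted p = 0.156, exact permutation test). Relative to the covered bases of each library, which were fewer at day 3, the sign turned, with +0.0638, +0.0279 and +0.0777 percentage points at the 3 pairs (lowest adjusted p = 0.131, exact permutation test).

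**Figure D4:**
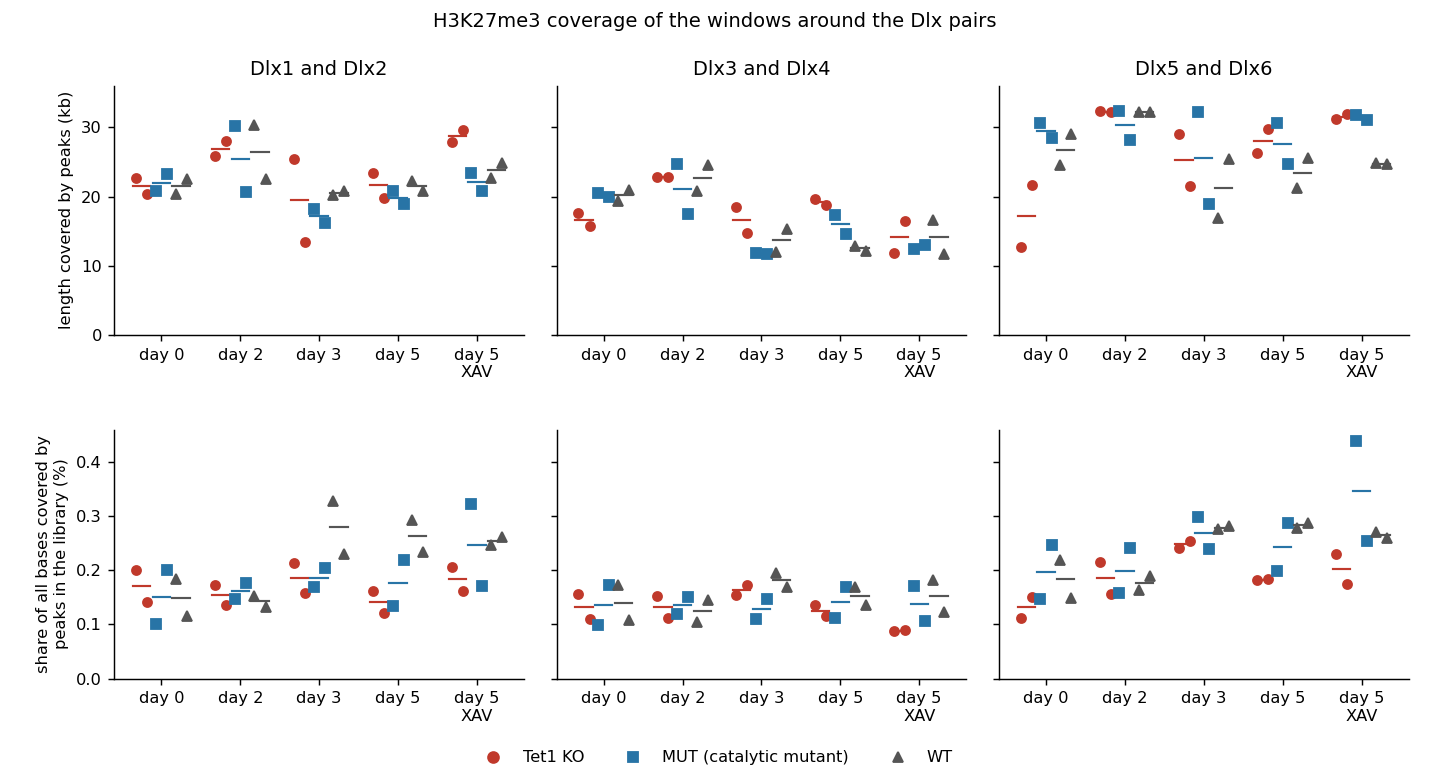
Length covered by H3K27me3 peaks in each pair's window (top, kb) and the same length as a percentage of all bases covered in that library (bottom), by time point and genotype with 1 point per library and a dash at the mean of each genotype. Day 3 lies below day 2 on average in the top panels for all 3 pairs and above it in the bottom panels.

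In rank, no member passed at day 3 against day 2, and the test called 0% of promoters. At an unadjusted p under 0.05, Dlx1 (-8.67), Dlx2 (-17.8) and Dlx6 (-17.1) had a lower percentile at day 3 (3 of 6 members, p = 0.0185 and adjusted p = 0.144 each, exact permutation test), beside 23.7% of all promoters. The median promoter had -8.95, so Dlx1 moved like the median promoter and Dlx3 ran the other way at +4.10 (p = 0.361, exact permutation test).

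At day 2 against day 0, none of the members passed the threshold in rank or width, and 0% of promoters did. The rank test at an unadjusted p under 0.05 picked 2 of 6 members and 27.3% of promoters, and the width test picked 4 of 6 members and 31.6% of promoters. Dlx6 had a mean percentile of 98.1 at day 2 and 78.7 at day 0 (+19.4, p = 0.0185, adjusted p = 0.106, exact permutation test), whereas the median promoter had -6.66. Dlx4 had 89.1 at day 2 and 93.8 at day 0 (-4.72, p = 0.00926, adjusted p = 0.0661, exact permutation test), a sign that turned to +6.66 when peaks were ranked on their highest signal. Both passed on a log2 rank and with an equal number of peaks taken from each library, where the share of all promoters that passed was not recorded. Without KO25 the differences were +26.98 for Dlx6 and -5.12 for Dlx4, and no member passed. Over all alternatives the adjusted p ran from 0.0310 to 0.278 for Dlx4 and from 0.0396 to 0.281 for Dlx6. In width, Dlx2, Dlx3, Dlx5 and Dlx6 were the members picked, with differences of +13.6, +1.54, +20.5 and +23.0 kb and a lowest adjusted p of 0.0717 (Dlx3, exact permutation test). The median promoter was wider by 1.00 kb. In covered length the day 2 libraries had 4.63 kb more at Dlx1-Dlx2, 3.18 kb more at Dlx3-Dlx4 and 7.08 kb more at Dlx5-Dlx6 than the day 0 libraries (lowest adjusted p = 0.146, exact permutation test). As a share of each library's covered bases the sign turned at Dlx1-Dlx2 and Dlx3-Dlx4.

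At day 5 against day 3 no member and 0% of promoters passed in rank or width. At an unadjusted p under 0.05 the rank test picked 1 of 6 members and 17.3% of promoters. This was Dlx1, with a mean percentile of 93.9 at day 5 and 87.1 at day 3 (+6.78, p = 0.0278, adjusted p = 0.183, exact permutation test), close to the median promoter at +7.23. The width test picked 1 of 6 members, Dlx4 at +2.12 kb, beside 11.9% of promoters.

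The third comparison asked what Wnt inhibition changed at day 5. The cell types of KO and MUT cultures also differ between these harvests, and the part of this in the Dlx values was not tested. No member passed in rank or width at day 5 XAV against day 5, and 0% of promoters did. At an unadjusted p under 0.05 the rank test picked 0 of 6 members and 6.52% of promoters, and the width test picked 1 of 6 members and 10.4% of promoters. Dlx5 was that member, with a mean width of 26.6 ± 13.2 kb at day 5 XAV and 10.4 ± 4.80 kb at day 5 (+16.2 kb, p = 0.0185, adjusted p = 0.356, exact permutation test). The mean width of Dlx6 was 24.6 ± 16.0 kb at day 5 XAV and 14.7 ± 4.82 kb at day 5 (adjusted p = 0.539, exact permutation test).

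The joined Dlx5-Dlx6 domain under XAV followed genotype in these libraries. The widest peak at day 5 XAV was 35.0 kb in KO1, 35.8 kb in KO15, 34.8 kb in CM59 and 34.0 kb in CM69, against 13.7 kb in WT70 and 7.56 kb in WT72. At day 5 without XAV it was 8.40 kb in KO1, 17.5 kb in KO15, 18.0 kb in CM59, 17.5 kb in CM69, 8.51 kb in WT70 and 18.1 kb in WT72, so the genotypes overlapped there. In WT cells under XAV the pair was split into 4 peaks in WT70 and 5 in WT72, and in KO and MUT cells it was 1 peak. As a percentage of each library's covered bases, the window at day 5 XAV held 0.230 in KO1 and 0.175 in KO15, below 0.271 in WT70 and 0.260 in WT72. On that scale the MUT lines lay on either side of WT, with 0.438 in CM59 and 0.255 in CM69. The pattern of joined domains was picked out after the values were seen. A peak wider in all 4 KO and MUT libraries than in both WT libraries was found at 48.2% of the promoters called in all 6, so it was not particular to Dlx5 and Dlx6.

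In covered length the XAV difference at Dlx5-Dlx6 was +2.85 kb (29.2 ± 3.47 kb at day 5 XAV and 26.4 ± 3.48 kb at day 5, adjusted p = 0.162, exact permutation test). Dlx1-Dlx2 was longer at day 5 XAV in 6 of 6 lines, by 0.391 kb in WT70 to 9.86 kb in KO15 (mean +3.90 kb, p = 0.00926, adjusted p = 0.0648, exact permutation test). As a percentage of covered bases it was higher in 4 of 6 lines and lower in WT70 (0.247 at day 5 XAV, 0.293 at day 5) and CM69 (0.170 at day 5 XAV, 0.219 at day 5), with a mean difference of +0.0345 percentage points (p = 0.306, exact permutation test). At Dlx3-Dlx4 the difference was -2.228 kb (p = 0.167, exact permutation test), with WT70 alone longer, by 3.79 kb. CM59 day 5 XAV held 704 peaks, the fewest of all, and without it the difference at Dlx1-Dlx2 was +3.45 kb and that at Dlx5-Dlx6 was +2.72 kb.

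Genes that act with the Dlx factors carried the mark to differing extents. Over 30 libraries the promoters of 22 genes of the forebrain GABAergic programme were called in 83.3% ± 6.79 of cases, those of 20 branchial arch and limb genes in 85.3% ± 5.40, and those of 16 bone, skin and placenta genes in 37.5% ± 4.92 (SD). A list of 20 other homeobox genes was called in 90.7% ± 3.88, against 99.4% ± 3.04 for the 6 Dlx genes. In no list did a gene pass the threshold in rank, and width did so only at day 3 against day 2.

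At day 3 against day 2, 12 of 20 tested genes of the GABAergic list had narrower peaks and 0 wider ones, beside 37.4% of all promoters (list median -4.23 kb, all promoters -3.43 kb). Among them were Nkx2-1 (-11.3 kb), which specifies the medial ganglionic eminence, Gad1 (-5.66 kb), which makes GABA, Meis2 (-5.31 kb), Six3 (-4.05 kb) and the vesicular GABA transporter gene Slc32a1 (-2.73 kb). Meis2 was called in only 13 of 30 libraries, so its difference can include libraries without a peak, which count as 0 kb. Nkx2-1, Gad1 and Six3 were called in all 30 and Slc32a1 in 29. Of the branchial arch and limb genes 12 of 19 were narrower and 0 wider (list median -6.52 kb), for example Barx1 (-8.33 kb), Pitx1 (-5.81 kb), Msx1 (-5.35 kb) and Alx4 (-4.66 kb), all homeobox genes. Of the bone, skin and placenta genes 2 of 7 were narrower, Gata3 (-16.2 kb) and Tfap2c (-8.01 kb), with a list median of -5.63 kb. Of the other homeobox genes 9 of 19 were narrower (list median -6.70 kb), among them Irx2 (-17.2 kb), Irx1 (-8.61 kb), Lbx1 (-7.69 kb) and Irx3 (-5.39 kb). The 6 Dlx genes had a median of -14.2 kb, and these lists were not tested against each other or against all promoters.

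Among the lists that mark cell types, the promoters narrower at day 3 than at day 2 were Esrrb (-4.79 kb) of 3 tested pluripotency genes, Pax6 (-12.3 kb) and Six3 of 6 neural progenitor genes, and T (-7.39 kb), Foxa2 (-6.03 kb), Mesp1 (-5.33 kb) and Eomes (-11.1 kb) of 10 mesoderm and endoderm genes. Their part in the Dlx values was not tested.

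Within the pairs, the percentiles of the partners had a Pearson's r over the 30 libraries of 0.23 for Dlx1 and Dlx2, 0.42 for Dlx3 and Dlx4, and 0.56 for Dlx5 and Dlx6. Dlx2 and Dlx6, of different pairs, had 0.59, above each of these. Partners hold identical values in the 12 and 10 libraries where 1 peak covers both, and the libraries share genotypes, lines and time points, so the values are a description. The promoters most like Dlx4 were Kcna2 (r = 0.95), Hr (0.93) and Dchs2 (0.93), and those most like Dlx3 were Lrrc26 (0.88), Tmem210 (0.88) and She (0.87). Dlx5 was most like Pou4f2 (0.80), Zic1 (0.79) and Tfap2d (0.77), and among those most like Dlx6 were Meis1 (0.77) and Cdx2 (0.77). Among those most like Dlx2 were Spag6 (0.65) and Evx2 (0.64), and Dlx1 was most like Tifa (0.65), Cbln2 (0.63) and Flt4 (0.62).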

How the data were processed

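H3K27me3 CUT&RUN peaks were read as deposited in 30 files of 1 library each. For the authors' peaks, reads went through Trim Galore and were aligned to GRCm38.p6 (mm10) by Bowtie. The authors called peaks with SEACR in stringent mode against IgG. The submitters' processing notes also name Picard, deepTools 3.4.3, DiffBind 3.0.15 and R 4.0.5. The deposited values are the total and the highest signal of each peak, a signal in coverage units with no read counts. The other deposited lists hold regions from the authors' own comparisons and were not used. SEACR reports only regions above its threshold, so the absence of a peak is no measurement of 0.

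Of 56359 peaks, 86 lay on sequences that are not assembled chromosomes and 0 ran past a chromosome end. Start sites were taken from the protein-coding transcripts of the GENCODE annotation. Each promoter (1.5 kb on either side) took the percentile and the width of its peaks, and promoters called in at least 2 libraries of a comparison were tested. A promoter without a peak in a library entered as 0 in both measures. Labels were permuted exactly within time points (genotypes) or genotypes (time points), two-sided, with Benjamini-Hochberg adjustment and a threshold of 0.05. Genotype comparisons used 10 libraries a group and time comparisons 6. The smallest p is 0.000257 between genotypes and 0.00926 between time points, for which 18.5% of promoters must reach that p before an adjusted value falls under 0.05. The labels do not say whether libraries of a line came from separate cultures, so p-values measure the spread between libraries. The permutation script was tested on simulated data. Samples of a line at 2 time points come from the same cell line, and the correlation of their deviations from the group means ranged from -0.49 to 0.25. Lines were therefore used as a replicate block in an alternative for the comparisons of time points. The genotype comparisons, which count libraries of the same line at several time points as separate, were not blocked by line.

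The 6 members were named with their values. Of the other lists, at most 5 genes past the threshold were named, lowest p first and then in list order. The nearest protein-coding genes and the 3 promoters most correlated with each member, at least 200 kb away, were named too. Some genes that this rule picks are not reported here. The members and lists were chosen with earlier results of these data known. Alternatives changed the ranking signal, windows, thresholds, start sites, number of peaks, libraries, block and scale. Python 3.11.15, NumPy 2.4.6, SciPy 1.17.1, pysam 0.24.0 and Matplotlib 3.10.9 were used.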

Additional observations from a re-analysis of the deposited data

Results flagged for a closer look

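In 3 of 81 pairs of genotypes checked, both lines of 1 genotype moved one way and both lines of the other moved the opposite way at a Dlx gene. These differences were not tested, and 2 lines a genotype are too few for a test to reach the threshold. The percentile of the Dlx5 promoter at day 5 minus day 3 was -1.97 in CM59 and -11.4 in CM69, both MUT, against +7.13 in WT70 and +3.25 in WT72. The percentile of the Dlx6 promoter at day 5 XAV minus day 5 was +11.5 in KO1 and +2.73 in KO15, both KO, and +0.293 in CM59 and +4.63 in CM69, both MUT, against -35.9 in WT70 and -32.8 in WT72. The Dlx6 values follow the layout of the domain, which was 1 peak in the KO and MUT libraries at day 5 XAV and was split in the WT libraries. The KO and MUT comparisons at Dlx6 share the same WT libraries.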

How the results depend on the processing

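Of 789 values recomputed for 48 results under 27 alternatives, 692 kept their direction and their side of the threshold, or their count, and no covered length passed the threshold under any of them. The 4 members with narrower peaks at day 3 than at day 2 were 2 with the most 5′ start site, 2 with stricter peaks, 2 with no filter on calls, 0 with the replicate block and 0 to 2 without 1 line. The block and the lines left out had fewer libraries, and the cause of the other changes was not tested. Where no member passed at day 2 against day 0, 3 members passed in rank on the log2 scale. With an equal number of peaks taken from each library, 3 passed in rank and 1 in width. With the same number of peaks within a time point, chosen after seeing the data, 1 passed in rank and 1 in width, 2 passed in rank at day 3 against day 2 and 2 passed in rank under XAV. The share of all promoters that passed was not recorded for any alternative, so these counts of members have no background and are a description only. The rank difference of Dlx4 at day 2 against day 0 turned to +6.66 on the highest signal.

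Covered length turned its sign mostly on the 2 relative scales, in percentage points of the library's covered bases or, chosen after seeing the data, of its peak signal. For KO against WT these were -0.0506 and -0.0486 at Dlx1-Dlx2, -0.0221 and -0.0191 at Dlx3-Dlx4, and -0.0472 and -0.0365 at Dlx5-Dlx6. For KO against MUT they were -0.0173 and -0.0326 at Dlx1-Dlx2, and -0.00711 and -0.00553 at Dlx3-Dlx4. For day 3 against day 2 they were +0.0638 and +0.0169, then +0.0279 and +0.0350, at the first 2 pairs, with +0.0777 at Dlx5-Dlx6 on covered bases. For day 5 against day 3 they were -0.0229 and -0.00399, -0.0186 and -0.0253, and -0.0288 and -0.000453. For day 2 against day 0, on covered bases, they were -0.00366 at Dlx1-Dlx2 and -0.00576 at Dlx3-Dlx4.

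In kb, KO against WT at Dlx1-Dlx2 was -0.196 with an equal number of peaks from each library, -0.132 without the day 5 XAV libraries and -0.660 over the span of the genes alone, and -0.513 to 2.28 without 1 line. Dlx5-Dlx6 was -0.181 without day 5 XAV and -0.519 to 2.93 without 1 line. MUT against WT at Dlx3-Dlx4 was -1.07 to 0.209 without 1 line. KO against MUT was -0.107 at Dlx1-Dlx2 over the span alone and +0.0845 at Dlx5-Dlx6 after day 2. The replicate block, used for comparisons of time points alone, changed no other call. With 6 lines the smallest p of its exact test is 0.03125 before adjustment, so it could hardly have changed one. The depth of each library is unknown, and a split or joined domain moves rank and width together.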
